A study of Mus musculus with 2 samples.

Results

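The genes described here are 46 protein-coding genes of DNA replication and the cell cycle, followed in the H3K4me3 landscape of mouse macrophages. They were chosen by name: the helicase and licensing factors, the fork and polymerase proteins, the enzymes of nucleotide supply, a set of mitotic genes, the cyclins, their kinases and inhibitors, and the E2F and Rb genes. They are 46 of the 21938 protein-coding genes that GENCODE release M21 places on the 21 chromosomes used. Trimethylation of histone H3 at lysine 4 (H3K4me3), which lies over active and poised promoters, had been mapped by chromatin immunoprecipitation and sequencing in primary bone marrow-derived macrophages of the inbred strain C57BL/6J. There was 1 group, cells given no stimulus, with 2 biological replicates, each library begun from 10 ng of DNA. The labels record a distinct cell preparation for each replicate but 1 donor entry for both, give neither age nor sex and do not say whether separate animals were used, so the spread between replicates may be technical. With 1 group there is no contrast between conditions, and the values below describe these 2 libraries without a test.

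Before S phase, origins are licensed when Cdc6 and Cdt1, bound at the origin, load the ring-shaped Mcm helicase, a step that geminin (Gmnn) blocks later in the cycle. Cyclin-dependent kinases then fire the origins, with cyclin D acting first through Cdk4 and Cdk6 to release E2F factors from the retinoblastoma protein, and E2F factors switch on many of the replication genes. Genes of mitosis peak later and are often held back in resting cells through the cell cycle homology region of their promoters. Macrophages grown from bone marrow progenitors divide in response to the growth factor CSF1 and can leave the cycle when they mature or are activated.

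The promoters below are shown because they carry, closest to the annotated start, the letters searched for later: the E2F-type words or the TTTGAA of the cell cycle homology region. Each line is read 5′ to 3′ on the strand of the gene from 120 bases before to 30 bases after the start of the principal transcript, in assembly GRCm38.p6, and capitals mark an E2F-type or TTTGAA match on either strand. Gins1 (chr2:150909474-150909623, plus strand) and Cdc45 (chr16:18811943-18812092, minus) encode parts of the replicative helicase complex, and Mcm5 (chr8:75109449-75109598, plus) a subunit of the Mcm ring. E2f1 (chr2:154569863-154570012, minus) and Rb1 (chr14:73325793-73325942, minus) encode the factor and its repressor. Cdk1 (chr10:69352909-69353058, minus), Ccnb2 (chr9:70421518-70421667, minus) and Top2a (chr11:99024160-99024309, minus) act in mitosis as kinase, cyclin and topoisomerase.
Mcm5: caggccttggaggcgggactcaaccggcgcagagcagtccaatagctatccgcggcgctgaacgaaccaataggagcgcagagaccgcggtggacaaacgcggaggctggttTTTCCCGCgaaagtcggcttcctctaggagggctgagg
Gins1: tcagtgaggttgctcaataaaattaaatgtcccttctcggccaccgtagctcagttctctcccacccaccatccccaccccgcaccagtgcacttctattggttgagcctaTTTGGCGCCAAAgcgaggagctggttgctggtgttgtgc
Cdc45: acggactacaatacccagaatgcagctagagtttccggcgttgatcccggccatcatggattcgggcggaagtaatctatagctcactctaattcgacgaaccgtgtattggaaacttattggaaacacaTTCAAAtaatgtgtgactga
E2f1: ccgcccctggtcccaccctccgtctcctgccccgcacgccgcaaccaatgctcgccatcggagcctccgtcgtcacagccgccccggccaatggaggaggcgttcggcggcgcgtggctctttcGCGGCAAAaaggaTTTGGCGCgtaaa
Rb1: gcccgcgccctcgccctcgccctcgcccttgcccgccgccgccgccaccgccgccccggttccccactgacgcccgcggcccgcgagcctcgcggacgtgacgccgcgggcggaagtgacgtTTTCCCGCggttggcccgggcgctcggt
Cdk1: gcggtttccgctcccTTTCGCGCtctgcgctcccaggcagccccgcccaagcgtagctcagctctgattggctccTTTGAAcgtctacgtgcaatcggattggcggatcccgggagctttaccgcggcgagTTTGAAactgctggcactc
Ccnb2: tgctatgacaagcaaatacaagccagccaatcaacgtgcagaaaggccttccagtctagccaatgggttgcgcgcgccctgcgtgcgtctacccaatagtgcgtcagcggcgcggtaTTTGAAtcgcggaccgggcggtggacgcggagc
Top2a: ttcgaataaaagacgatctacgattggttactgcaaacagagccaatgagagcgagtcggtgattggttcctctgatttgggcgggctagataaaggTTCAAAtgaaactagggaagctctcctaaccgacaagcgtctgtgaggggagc
In the Gins1 promoter 2 E2F-type matches overlap, one on each strand, and the minus-strand match covers the start. The TTTGAA of Ccnb2 also spans the start, and the Cdk1 line holds both kinds of match.

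The peak list of replicate 1 held 20031 peaks over 25.5 Mb and that of replicate 2 held 16376 peaks over 17.8 Mb, so domains are compared within a list before they are averaged. Peak folds are the authors' own values for each peak and ran to 69.9 in replicate 1 and 35.1 in replicate 2. What they are relative to is not stated, so they are read as percentiles among marked genes of the same list. Read depth is unknown. As a check of the label, 10 of 10 macrophage markers had a peak at a start in both lists, among them Csf1r and Adgre1, against 0 of 4 neutrophil, 0 of 2 T cell, 0 of 2 B cell and 0 of 2 fibroblast markers. The erythroid factor gene Klf1 did have peaks in both, of 1502 and 533 bp with folds of 14.4 and 4.31. The part of such cells in the results below was not tested.

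All 46 genes were marked, meaning that each replicate had a peak within 1000 bp of an annotated transcript start. Over all protein-coding genes 49.5% were marked, 10869 of 21938. All coding genes were cut by CpG observed/expected ratio into 5 groups of equal size. Among other coding genes of the same groups as the 46 the share marked averaged 73.6%. It rose from 7.02% in the lowest of these groups to 82.3% in the highest. For widths and folds a separate cut into 5 groups of equal size was made over marked genes alone. Those are the CpG groups named below. In bulk chromatin a mark on fewer cells and a weaker mark on every cell cannot be told apart. The lists hold no expression values, so the mark was not set against transcription.

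The domains over these genes were wider than those of other marked genes in both replicates. A domain is the run of peaks joined across gaps of up to 1000 bp, and the widest at a gene was taken. Its median width over the 46 genes was 2781 bp in replicate 1 and 2330.5 bp in replicate 2, against 2145 and 1739 bp over the 10823 other marked genes. The mean over the replicates had a median of 2508.75 bp, with quartiles at 1982.25 and 3065 bp, against 1945.5 bp with quartiles at 1429.25 and 2543 bp. The medians of the 46 genes had an SD of 319 bp between the replicates (n = 2), and the lower of them was above the higher median of the other genes.

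Set against the marked genes of its own CpG group, 37 of the 46 were above the median width, where 50% of other marked genes are by construction. The median difference was 484 bp, with a range from -803 bp at Cdkn2a to 4488 bp at Cdkn1a. Without joining peaks the median width dropped to 1975.75 bp, while the difference from the CpG group was 484.5 bp. Widths of 4000 bp or more were found at 5 of 46 genes (10.9%), Cdkn1a, Ccnd1, Cdk6, Cdkn2c and Mki67, and at 505 of 10823 others (4.67%). The wide end thus held 4 genes of cell cycle control and 1 of mitosis, and none of replication.

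**Figure D1:**
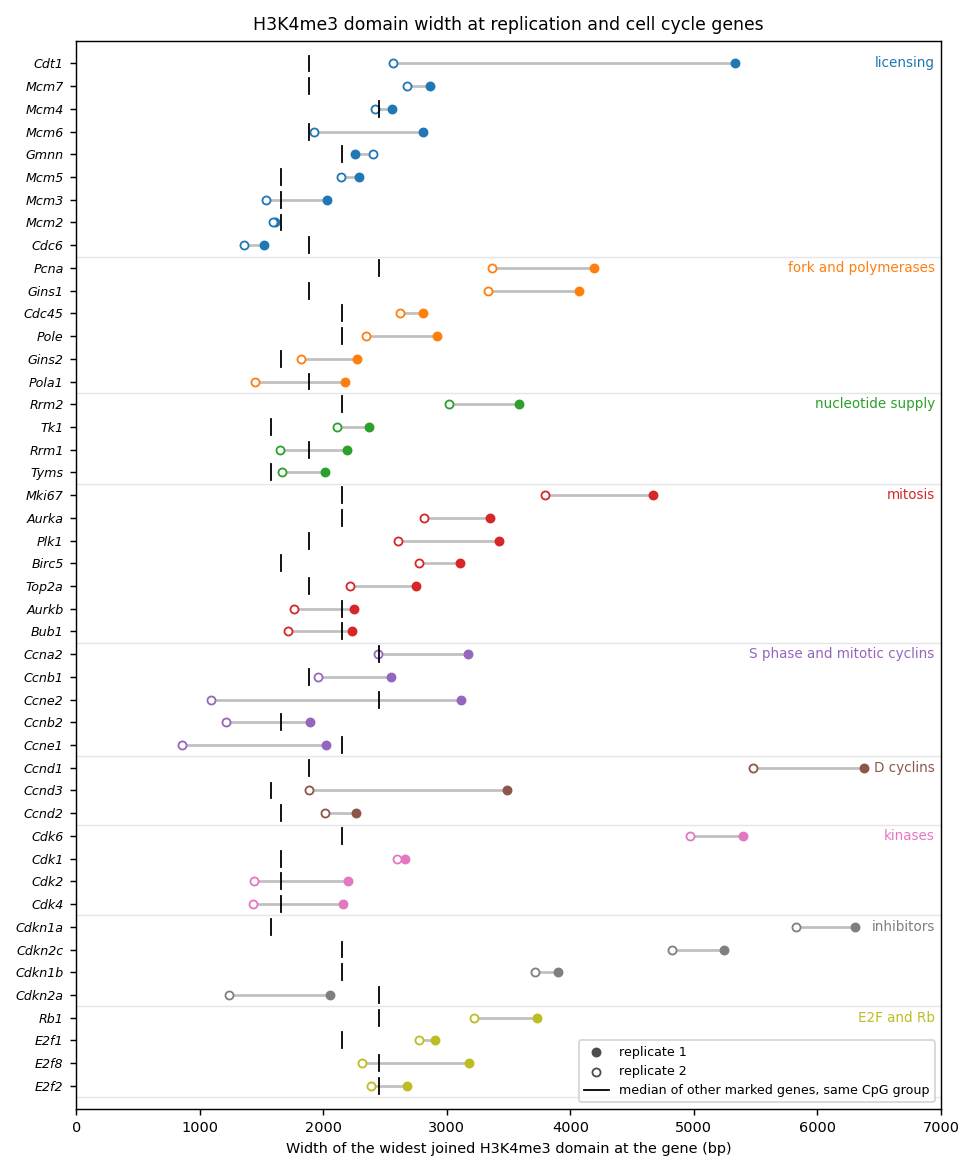
Width in bp (x axis) of the widest joined H3K4me3 domain at each of the 46 genes (y axis), grouped by role, with replicate 1 as filled and replicate 2 as open circles joined by a grey line. Short black bars give the median of other marked genes of the same CpG group, and 37 of the 46 genes have a mean to the right of it. Replicate 1 was wider at 45 of 46, as at 10683 of 10823 other marked genes.

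Of the 9 licensing genes, 7 were wider than their CpG group, but the median difference was small, 177.5 bp, on a median width of 2332 bp. The widest was Cdt1, the loader of the helicase, with 5335 bp in replicate 1 and 2568 bp in replicate 2 (3951.5 ± 1957 bp, SD, n = 2) and folds of 36.1 and 14.5. Its replicate 1 domain takes in a second peak that ends 2135 bp upstream of the start, which in replicate 2 was called 1405 bp from the next. With no joining of peaks, which in replicate 2 also splits off a nearer upstream peak, the mean was 2308 bp.

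The 6 subunits of the helicase ring, which work as a single complex, ranged widely. Mcm7, whose window also holds the start of Ap4m1, had 2865 and 2680 bp, and Mcm4, which shares its window with Prkdc, had 2558 and 2416 bp. Mcm5 had 2292 and 2146 bp and Mcm6 2807 and 1924 bp, the latter without a peak on the upstream side in replicate 2. The narrowest of the ring were Mcm3 with 2031 and 1533 bp and Mcm2 with 1610 and 1591 bp. Mcm2 was close to the median of its CpG group, 54 bp below it, yet its peak folds of 48.8 and 19.6 put it at percentile 77.6, while Mcm3, with folds of 22.2 and 7.57, was at percentile 14.8. A separate domain begins 2442 bp upstream of Mcm2 in replicate 1 and 2571 bp upstream in replicate 2, and joining over 3000 bp in place of 1000 bp took Mcm2 to 7003 bp.

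Cdc6, the ATPase that works with Cdt1, had 1519 and 1357 bp (1438 ± 115 bp, SD, n = 2), 447 bp below its CpG group. Its mean was the lowest of the 46, next to 1439.5 bp at Ccne1, but in replicate 2 Ccne1, Ccne2, Ccnb2 and Cdkn2a were narrower. Its folds of 42.2 and 16.4 were nonetheless near the middle of the lists, at percentile 59.5. Gmnn, the inhibitor of Cdt1, was the only gene of the 46 with a wider domain in replicate 2, 2403 bp against 2261 bp. Over 17 alternative settings of window, list, joining and CpG grouping, the median difference of the licensing genes lay between 123 and 736 bp, and it was 277 bp without replicate 2.

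Fork and polymerase genes had a median width of 2674.75 bp, 520 bp above their CpG groups at the median (338 bp with 3 CpG groups in place of 5), with 5 of 6 above. Pcna, the sliding clamp of the polymerases, was widest with 4188 and 3363 bp (3775.5 ± 583 bp, SD, n = 2) at chr2:132249952-132254139 in replicate 1, reaching 3362 and 2580 bp into the gene, with folds of 39.9 and 15.3. Pola1, the catalytic subunit of the primase-bound polymerase and the only X-linked gene of the 46, was narrowest with 2174 and 1448 bp (1811 ± 513 bp, SD, n = 2). Its folds were 39.2 and 14.5, and in replicate 2 its domain reached only 2 bp upstream of the start.

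Cdc45, which completes the active helicase, had 2811 and 2622 bp in a window shared with Ufd1, and Pole, the leading-strand polymerase, 2922 and 2344 bp in a window shared with Pxmp2. Pole had low folds for this width, 30.6 and 9.92, at percentile 26.9. Gins2, another part of the active helicase, had 2270 and 1821 bp. Of these 3, both genes with a shared window had their summit upstream of their own start, by 765 and 752 bp at Cdc45 and by 492 and 569 bp at Pole.

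Gins1 had domains at separate starts. The widest, 4067 and 3335 bp with folds of 48.6 and 20.6, lay 4119 and 4271 bp upstream of the principal start, near the start of a processed transcript of Gins1, which only the replicate 1 domain covers, and in a window that holds the start of the neighbouring gene Abhd12. Over the principal start itself, whose sequence is printed above, the domain was 1408 and 1129 bp with folds of 22.0 and 7.70. The principal promoter of Gins1 was therefore narrow, and its place among the wide genes comes from the shared one.

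The 4 genes of nucleotide supply were all above their CpG groups, by 465 bp at the median (264 bp without Tk1, which shares its window), with a median width of 2081.5 bp. Rrm2, the S phase subunit of ribonucleotide reductase, had 3587 and 3015 bp (3301 ± 404 bp, SD, n = 2), and its partner subunit Rrm1 had 2192 and 1650 bp. The folds ran the other way, 26.9 and 7.83 at Rrm2 (percentile 19.0) against 40.0 and 17.2 at Rrm1 (percentile 58.5). Tyms, thymidylate synthase, was narrowest with 2014 and 1665 bp (1839.5 ± 247 bp, SD, n = 2) and folds of 40.5 and 15.4. Tk1, thymidine kinase of S phase, had 2372 and 2112 bp in a window shared with Afmid.

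At the median the mitotic genes were wider and higher in fold than the replication genes. Their median width was 2942 bp, 928 bp above their CpG groups, with 5 of 7 above, and their median fold percentile was 73.6 against 53.6 for the 19 replication genes. Over 17 alternative settings the difference from the CpG group lay between 731.5 and 1127 bp. No test of mitotic against replication genes was made, and the ranges of both groups overlap.

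Mki67, which coats mitotic chromosomes and is used as a proliferation marker, was widest of them with 4672 and 3795 bp (4233.5 ± 620 bp, SD, n = 2) at chr7:135712759-135717430 in replicate 1. The domain reached 3602 and 2894 bp into the gene and its folds were 48.6 and 18.1. Aurka, the spindle pole kinase, had 3350 and 2815 bp over a promoter shared with Cstf1. Plk1, a kinase of mitotic entry and exit, had 3419 and 2603 bp and the highest fold percentile of the 7, 79.8.

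Birc5 (survivin), a partner of Aurkb at the centromere, had 3110 and 2774 bp made of 2 peaks that meet near the start, 1288 bp above its CpG group. Its mean was 1538.5 bp when peaks were not joined. Top2a, which untangles sister chromatids, had 2755 and 2218 bp. The pair below their CpG groups were Aurkb with 2250 and 1764 bp and the checkpoint kinase Bub1, the narrowest, with 2236 and 1712 bp (1974 ± 371 bp, SD, n = 2). Bub1 was also the only mitotic gene under the middle of the fold ranking, at percentile 37.9 from folds of 32.1 and 13.6.

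The cyclins of S phase and mitosis were the exception to the width of the list. Their median was 2103.5 bp, 100 bp below their CpG groups, with 2 of 5 above. The replicates disagreed, with medians of 2547 bp in replicate 1 (the width of Ccnb1) and 1213 bp in replicate 2 (that of Ccnb2). In 15 of 17 alternative settings the median difference was negative. It turned positive, to 293 bp, on the authors' pooled list and to 467 bp without replicate 2, and was -333.5 bp at its lowest.

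Among these cyclins, Ccne1 and Ccne2, the partners of Cdk2 at the entry to S phase, differed most between the replicates. Ccne1 had 2020 bp in replicate 1 and 859 bp in replicate 2 (1439.5 ± 821 bp, SD, n = 2), and Ccne2 had 3112 and 1095 bp (2103.5 ± 1426 bp, SD, n = 2). In replicate 2 the domain of each began inside the gene, 255 and 397 bp past the start, and the upstream peaks of replicate 1 had no counterpart. The fold of Ccne1 was also the lowest of the 46, 17.7 and 5.61, at percentile 8.73, while Ccne2 with 42.4 and 14.4 was at percentile 53.3.

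Among the mitotic cyclins, Ccna2, which serves S phase and mitosis, was widest with 3169 and 2444 bp (2806.5 ± 513 bp, SD, n = 2) and folds of 45.4 and 14.6. Ccnb1, the main mitotic partner of Cdk1, had 2547 and 1960 bp and folds of 55.7 and 23.5 at percentile 92.5, the second highest of the 46. Its relative Ccnb2 had 1896 and 1213 bp with folds of 30.5 and 12.9 at percentile 34.2. The Ccnb2 domain in replicate 2 began 63 bp past the start, and its upstream peak of replicate 1 had no counterpart there.

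All 3 D cyclins, which carry growth factor signals to Cdk4 and Cdk6, were wider than their CpG groups, by 1109 bp at the median, the value of Ccnd3. This median was 544 bp without replicate 1 and 1850 bp without replicate 2, and it ran from 474 to 4018 bp over 17 alternative settings. The highest value, at the 5′ end of the gene alone, is that of Ccnd1, since Ccnd2 and Ccnd3 were not marked there. With all 3 marked the highest was 3109 bp, with joining over 3000 bp. Ccnd1 had 6376 and 5479 bp (5927.5 ± 634 bp, SD, n = 2) at chr7:144936931-144943306 in replicate 1, the second widest of the list, with folds of 54.7 and 22.1 at percentile 89.6. The domain ran 3437 and 2913 bp upstream and 2938 and 2565 bp downstream of the start. It held 2 peaks in replicate 1 and 4 in replicate 2, so that without joining the mean was 2947.5 bp.

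Ccnd2 was the narrowest of the 3, with 2265 and 2018 bp (2141.5 ± 175 bp, SD, n = 2), nearly all of it downstream of the principal start, and folds of 34.8 and 13.6. Ccnd3 had 3487 and 1883 bp with folds of 51.9 and 20.8 at percentile 84.4, but not at its principal start. That domain lay 87950 and 88520 bp further into the gene, among internal starts. In replicate 1 it covered those from position 47593436 to 47596324 on chromosome 17. The first of these has a CpG ratio of 0.634 against 0.328 at the principal start that set its CpG group. In replicate 2 the domain ran from 47593571 to 47595453 and covered only the starts at 47594313 and 47594756. The principal start had a peak of 749 bp and a fold of 4.11 in replicate 1 and no peak in replicate 2. Counted at the principal start alone, Ccnd3 would be the 1 gene of the 46 that is not marked.

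The 4 kinases were all above their CpG groups, by 568.5 bp at the median, but this is carried by Cdk6 and Cdk1. Cdk6 had 5400 and 4972 bp (5186 ± 303 bp, SD, n = 2) at chr5:3340539-3345938 in replicate 1, and unlike most others it was longer upstream (3354 and 3363 bp) than downstream (2045 and 1608 bp), with its summit 2225 and 2240 bp before the start. The Cdk6 domain also covers another coding start of the gene, 2408 bp upstream of the principal one, and the summit lay close to that start. Its folds were 43.5 and 17.2. Cdk1, the kinase of mitosis, had 2662 and 2596 bp. Cdk2, which shares its window with Pmel, had 2197 and 1436 bp and folds of 51.8 and 20.2 at percentile 82.9.

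Cdk4 was the narrowest kinase with 2164 and 1434 bp (1799 ± 516 bp, SD, n = 2), 145 bp above its CpG group, and folds of 37.1 and 15.8. Cdk4 and Cdk6 both pair with the D cyclins and differed by 3236 bp in replicate 1 and 3538 bp in replicate 2. When peaks were joined over 3000 bp, Cdk4 reached 4720 bp and the median difference of the kinases 1949 bp.

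The inhibitors held the widest domain of all and one of the narrower ones. Their median width was 4422 bp, 2267.5 bp above their CpG groups, with 3 of 4 above. Cdkn1a, the p53 target that stops cyclin-dependent kinases, had the widest domain of the 46, 6304 and 5824 bp (6064 ± 339 bp, SD, n = 2) at chr17:29090599-29096902 in replicate 1. Its folds of 52.3 and 24.1 stood at percentile 90.5. The domain began at the upstream start, where the CpG ratio is only 0.150, and its summit lay 3201 and 3219 bp downstream, past a second coding start at 2790 bp with a CpG ratio of 0.656.

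Cdkn2c, an inhibitor of Cdk4 and Cdk6, had 5247 and 4824 bp, of which 4411 and 4148 bp were downstream of the start. That stretch holds a second coding start at 1817 bp, and the summit lay near it, at 1573 and 1645 bp. Cdkn1b, the inhibitor of cyclin E and Cdk2 in resting cells, had 3903 and 3714 bp and the highest fold percentile of the 46, 92.8, from folds of 55.9 and 23.6. Joined over 3000 bp, the Cdkn1b domain reached 11710 bp, since separate domains flank it on both sides, and the median difference of the inhibitors was 3629 bp. These 3 genes lay wholly above the median of other marked genes in both replicates.

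Cdkn2a, which encodes Ink4a and Arf from different first exons, was the other extreme, with 2055 and 1241 bp (1648 ± 576 bp, SD, n = 2) despite a CpG ratio of 0.880. It lay 803 bp below its CpG group, the lowest difference of the 46. Only the upstream start, which by background knowledge begins the Arf transcript, had a peak, and the start 12461 bp further on, which begins Ink4a, had none in either replicate. The domain lay mostly ahead of the marked start, 1583 and 1408 bp upstream with the summit 1012 and 995 bp before it, and in replicate 2 it ended 168 bp short of the start. Its folds of 21.7 and 9.79 were at percentile 19.0.

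The 4 E2F and Rb genes were all wider than their CpG groups, by 491 bp at the median, on the highest median CpG ratio of any role group, 0.796. E2f1, an activator of S phase genes, had 2902 and 2777 bp, and E2f8, a repressor that acts late in S phase, had 3179 and 2317 bp. E2f2, another activator, was narrowest with 2677 and 2384 bp (2530.5 ± 207 bp, SD, n = 2) and folds of 37.2 and 14.6, 80 bp above its CpG group. Over 17 settings the median difference of the group ran from 47 bp with no joining of peaks to 677.5 bp. Without joining E2f1, E2f2 and E2f8 had means of 1480.5, 1463 and 1464 bp, and Gins2, Pole, Rrm2 and Ccna2 likewise dropped to 1064.5, 1550.5, 1760 and 1816.5 bp.

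Rb1 was widest with 3733 and 3218 bp (3475.5 ± 364 bp, SD, n = 2), but this domain lay inside the gene, 84656 and 85086 bp from the principal start, over the start of an internal processed transcript, with folds of 44.3 and 15.6. The same domain covers the start of Lpar6, a coding gene that lies inside Rb1 on the other strand. Over the principal start, printed above, Rb1 had 2546 and 2504 bp with folds of 28.0 and 11.0. In both replicates that domain was made of a peak ending 233 and 277 bp before the start and one beginning 462 and 543 bp after it.

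**Figure D2:**
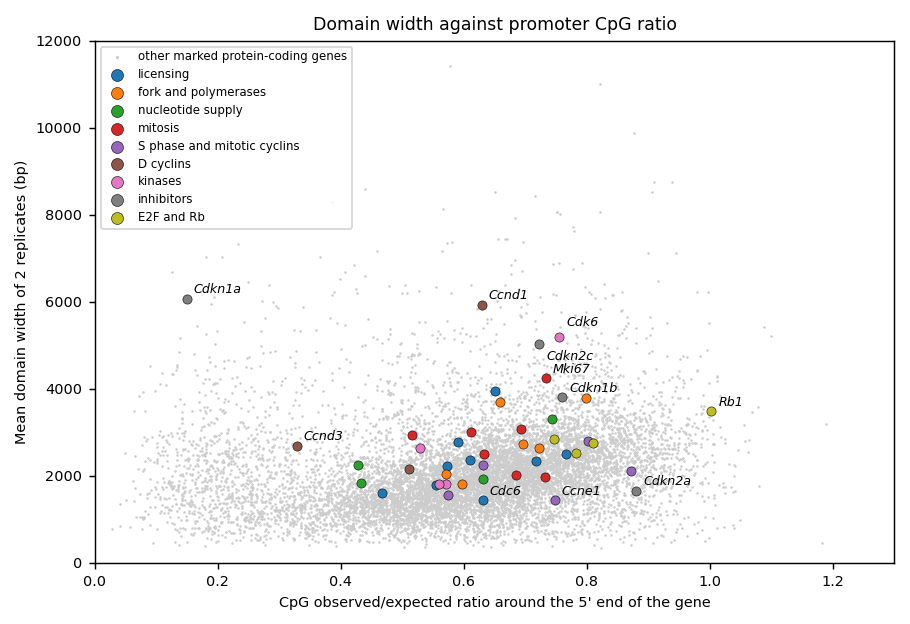
Mean domain width of the 2 replicates in bp (y axis) against the CpG observed/expected ratio within 1000 bp of the 5′ end of the gene (x axis), for 10823 other marked protein-coding genes (grey points) and the 46 genes coloured by role. Cdkn1a stands at the low CpG end with 6064 bp, and Cdkn2a at a ratio of 0.880 with 1648 bp.

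Width followed CpG ratio loosely. Across the 46 genes the Spearman correlation of width and CpG ratio was 0.27, and across the 10823 other marked genes it was 0.31. Width and fold percentile correlated at 0.44 and 0.45 in the same sets. These are descriptions across genes that share both libraries. From the lowest to the highest CpG group, the median width of other marked genes was 1575.75, 1654.25, 1885.25, 2154.5 and 2451 bp, and the 46 genes fell into these groups as 4, 10, 11, 13 and 8.

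The replicates ranked the genes alike. Widths of replicates 1 and 2 correlated at 0.86 over the 46 genes and 0.87 over the others, and folds at 0.91 and 0.96. Replicate 1 was wider at 45 of 46 genes, as at 10683 of the 10823 other marked genes. The median factor was 1.23 against 1.19 for the others. At 6 of the 46 (13.0%), Ccnb2, Ccne1, Ccne2, Cdk4, Cdkn2a and Mcm6, the domain covered the principal start in replicate 1 and not in replicate 2, as at 14.0% of the others.

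**Figure D3:**
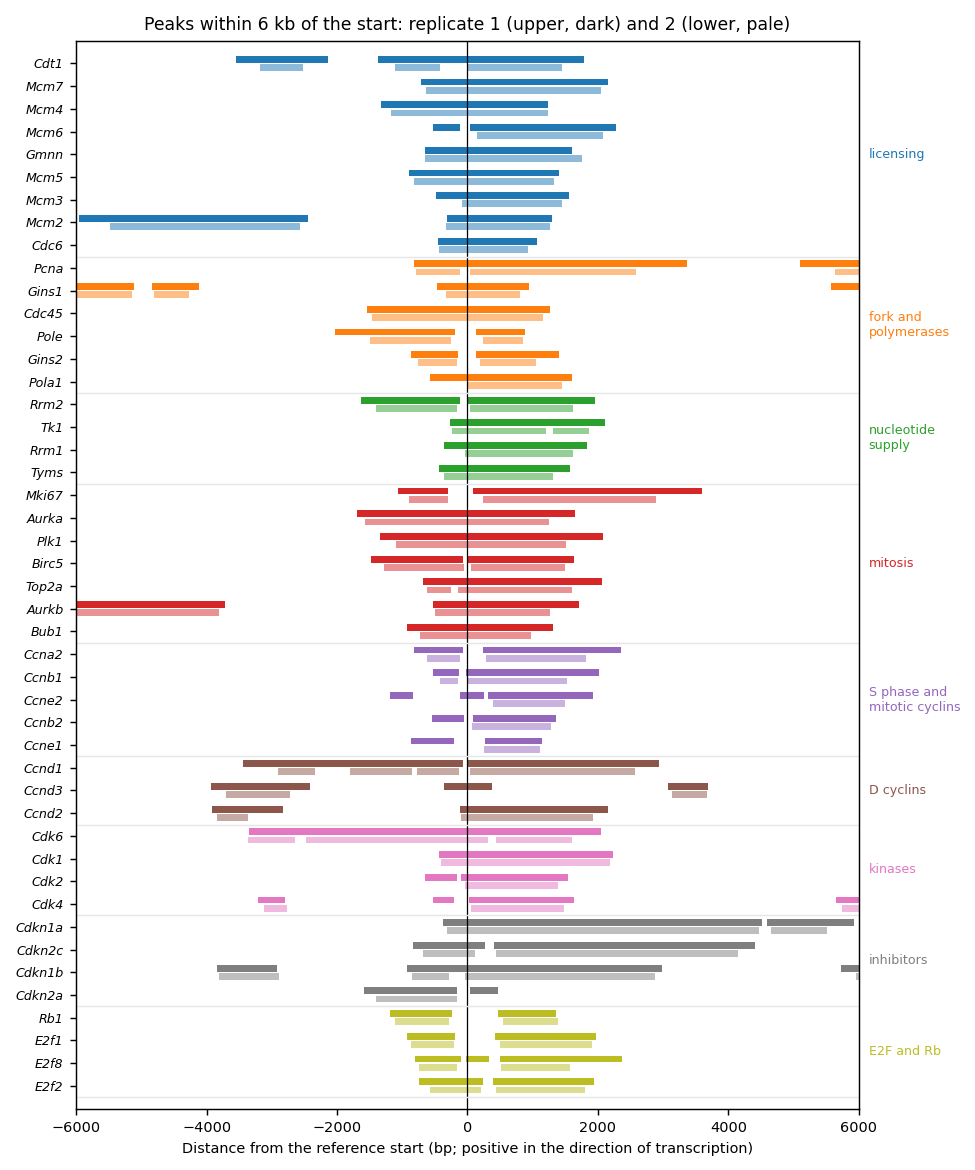
Peaks within 6000 bp of the principal start (x axis, bp, positive in the direction of transcription) for each of the 46 genes (y axis), with replicate 1 as the upper dark bar and replicate 2 as the lower pale bar. Most domains reach further downstream than upstream, and at 8 genes the start lies in a gap between 2 peaks in both replicates.

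Most domains leaned into the gene. Where the domain covered the principal start in both replicates (37 genes), it reached a median of 755 bp upstream and 1772.5 bp downstream, and 30 of 37 (81.1%) were longer downstream. In other marked genes the medians were 768 and 1224 bp and the share was 77.9%, so the medians of the 46 genes were longer on the downstream side only. The inhibitors Cdkn1a, Cdkn1b and Cdkn2c had the longest downstream arms of any role group, 4279.5 bp at the median. At Cdkn1a and Cdkn2c this arm takes in a second coding start, 2790 and 1817 bp past the principal one.

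Promoters shared with a divergent neighbour leaned less. The 8 genes whose window holds the start of another coding gene, Mcm4, Mcm7, Cdc45, Gins1, Pole, Tk1, Aurka and Cdk2, all face a partner on the other strand. Of the 7 whose domain covers the start, 3 (42.9%) were longer downstream, against 27 of 30 (90%) with no coding neighbour. In other marked genes the shares were 49.2% with a coding neighbour on either strand and 89.4% with none. Of the 2718 other marked genes with a neighbour, 2403 had one on the other strand. The median width of the 8 genes was 2674.75 bp, against 2426 bp for the 38 of the 46 without a neighbour. In other marked genes it was 2299.5 bp with a coding neighbour and 1811 bp with none.

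At 8 genes (17.4%) the principal start itself fell in a gap between joined peaks in both replicates, as at 13.7% of other marked genes. These are Ccna2, Ccnd1, E2f1, Gins2, Mki67, Pole, Rb1 and Rrm2. At 28 genes (60.9%) the start was inside a peak in both, as at 49.8% of the others. Of the 9 licensing genes 8 had the start inside a peak in both replicates, and none had it in a gap in both.

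**Figure D4:**
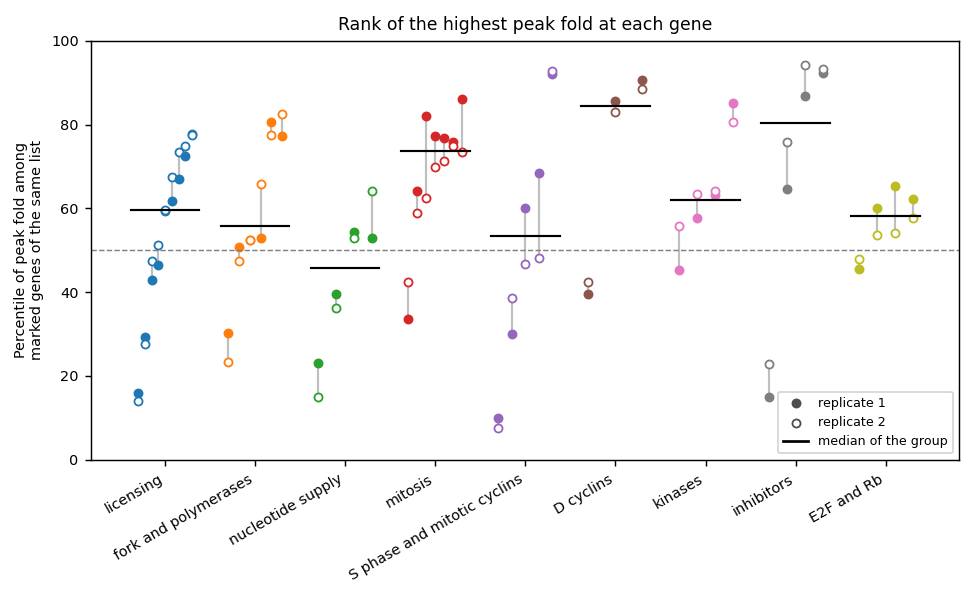
Percentile of the highest peak fold at each of the 46 genes among marked protein-coding genes of the same list (y axis, percent) by role group (x axis), with replicate 1 filled, replicate 2 open and the group median as a black bar. D cyclins and inhibitors have medians of 84.4 and 80.3, nucleotide supply one of 45.8.

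Peak folds were nearer to those of other marked genes. Their median percentile was 59.6, or 58.0 within the CpG group, and 32 of 46 were above the middle. Over the genes the median fold was 42.7 in replicate 1 and 16.4 in replicate 2, against 38.9 and 14.9 over the others. The highest percentiles belonged to Cdkn1b, Ccnb1, Cdkn1a, Ccnd1 and Ccnd3, all genes of cell cycle control, and the lowest to Ccne1, Mcm3, Rrm2, Cdkn2a and Pole. By role, D cyclins (84.4), inhibitors (80.3) and mitotic genes (73.6) were above the kinases (62.1), licensing genes (59.5), E2F and Rb genes (58.2), fork genes (55.9), S phase and mitotic cyclins (53.3) and nucleotide supply (45.8).

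A wider list of 72 other genes of replication, mitosis and the cell cycle was less wide. Of these, 69 were marked in both replicates, with a median width of 2042 bp and a median difference of 198 bp from their CpG groups, and 43 of 69 were above. The widest were Cdkn2d, an inhibitor of Cdk4 and Cdk6, with 5294 and 5225 bp (5259.5 ± 48.8 bp, SD, n = 2), Wee1, the kinase that holds Cdk1 inactive, with 4728 and 3979 bp, and Fbxo5, an inhibitor of the anaphase-promoting complex, with 4290 and 3991 bp.

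The 3 genes of this list without a mark in both replicates were Ccna1, a cyclin of the germ line, and Cdkn1c, an imprinted inhibitor, with no peak, and Cdkn2b, the neighbour of Cdkn2a, with a peak of 860 bp and a fold of 10.3 in replicate 1 alone. Of the 7 inhibitor genes in both lists together, 5 were thus marked in both replicates, where 49.5% of all protein-coding genes were. Cdkn2a was the narrowest of the 5.

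Promoter letters differed between the roles. Exact matches on either strand were counted from 250 bases before to 50 after the principal start, 300 bases in all, for the E2F-type words TTTCCCGC, then TTTCGCGC, then TTTGCCGC and also TTTGGCGC. At least 1 of these stood in 16 of the 46 promoters (34.8%), in 4.28% of those of other marked genes and in 2.89% of all protein-coding genes. In the list of 72 the count was 10 (13.9%). Licensing genes had them in 7 of 9, the E2F and Rb genes in 3 of 4, fork genes in 3 of 6, kinases in 2 of 4 and inhibitors in 1 of 4, Cdkn2a. None of the 4 nucleotide supply genes, 7 mitotic genes, 5 S phase and mitotic cyclins or 3 D cyclins had one.

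The TTTGAA letters were found in 11 of 46 promoters (23.9%), against 11.7% of other marked genes and 15.6% of all. The list of 72 had nearly the same share, 17 promoters (23.6%). Among the 46, TTTGAA was in 5 of 7 mitotic genes, Mki67, Top2a, Aurka, Aurkb and Plk1, and in 2 of 19 replication genes, Mcm2 and Cdc45. In all 5 mitotic genes the letters CCAAT, bound by NF-Y, were present as well. Both sets of letters together were in 10 of the 46 promoters (21.7%), in 12 of the list of 72 (16.7%) and in 5.15% of other marked genes. No match in this window says only that these letters are not there.

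The other letters were counted in the same way. CCAAT, with or without TTTGAA, was in 28 of 46 (60.9%) against 39.0% of other marked genes, the GC box GGGCGG in 34 (73.9%) against 64.8%, and TATAAA in 4 (8.70%) against 6.77%. None of the words searched contains another, though an E2F-type word can overlap an E2F-type match on the other strand, as in Gins1.

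Among the 46, the genes with neither kind of match had the widest median domain. The letters were read at the principal start, but the width is that of the widest domain at any start. For Gins1 and Rb1, with an E2F-type word, and Ccnd3, with neither, that domain lies away from the principal start. The 16 genes with an E2F-type word had a median width of 2426 bp and a fold percentile of 54.3, the 10 with TTTGAA only had 2601.5 bp and 73.8, and the 20 with neither had 2729 bp and 58.9. Of the 5 genes of 4000 bp or more, Cdkn1a, Ccnd1, Cdk6 and Cdkn2c had neither, and Mki67 had TTTGAA. Among other marked genes the 463 with an E2F-type word had a median width of 2037 bp and the 9149 with neither 1946 bp.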

How the data were processed

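H3K4me3 was measured in 2 libraries of 1 group. According to texts the authors deposited on the origin of the files, peaks were called on each replicate alone, and a pooled and a replicated list were made from both. The labels name assembly mm10. The aligner, the peak caller and its cutoffs are not stated in these sources. Each deposited peak carries the authors' fold (a ratio, relative to what is not stated), a −log10 p value and a summit position. Sequencing depth is unknown without read counts, and no precision can be derived from it.

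From these lists, peak ends were compared with GRCm38.p6, where 0 lay beyond a chromosome. A coding gene was marked when a peak of both replicates overlapped by at least 1 bp the 1000 bp on either side of any GENCODE M21 transcript start. Peaks within 1000 bp were joined, and the widest joined domain at a gene was measured in each replicate and averaged. The highest fold was ranked among marked genes of the same list. The CpG observed/expected ratio was taken within 1000 bp of the gene's 5′ end, with 5 groups of marked genes cut by it. For the share of genes marked, the 5 groups were cut over all coding genes instead. The principal start was that of the APPRIS principal transcript for all 46 genes. Motifs were exact letters on both strands. Fold served only to describe and rank peaks within a list. No tests were made, since the 2 libraries form 1 group.

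The 46 genes, the list of 72 and the markers were chosen with earlier results of these data known. The result of 1 marker is not reported here. The rule for naming genes asked for every member at least once, full values for the widest and narrowest of each role, the 5 highest and 5 lowest folds and genes with separate domains, and the 3 widest and the unmarked genes of the list of 72. Promoters printed were those with the match nearest to the start, at most 2 per role. The measures at starts inside gaps between peaks, Cdk6 against Cdk4, and the count of inhibitors were chosen after the values were seen. Alternatives were other windows, starts, overlaps, peak lists, joining distances, CpG groupings and leaving out each replicate. The marking and width routine was tested on simulated data, where 500 of 500 genes gave the same answer as a direct search. Scripts ran in Python 3.11.15 with NumPy 2.4.6, SciPy 1.17.1 and Matplotlib 3.10.9.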

Additional observations from a re-analysis of the deposited data

How the results depend on the processing

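All 46 genes stayed marked under 8 of the 11 alternatives tried for marking. The count was 44 at the 5′ end of the gene alone (without Ccnd2 and Ccnd3), 45 at the principal start alone (without Ccnd3), and 38 of 38 without genes that share a window. The median width was 1975.75 bp with no joining of peaks, and 2330.5 to 2781 bp when a replicate was left out. The median difference from the CpG group was positive under all 17 alternatives: 413 bp at the 5′ end alone, 394 bp at the principal start alone, 406 bp with the 15000 peaks of lowest p in each list, 541 bp with joining over 3000 bp, and 465 to 533 bp with a replicate left out. The domain of the peak of highest fold, an alternative chosen after seeing the data, gave 520 bp. The median fold percentile was 59.2 to 63.7 with a replicate left out. The cause of these shifts was not tested. Role medians kept their sign under all 17 alternatives except for the S phase and mitotic cyclins, positive in 2. Of 633 single-gene widths under alternatives, 37 moved by more than the SD between replicates. Leaving out a replicate could not move a single gene that far, since the SD comes from the same 2 widths. A gene whose replicates differ widely also has a large SD to exceed, so this count does not measure stability. Depth is unknown, so a peak absent from replicate 2 was not detected there and is not shown to be absent, and an SD from 2 libraries is itself imprecise.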
